A study of Homo sapiens with 3 samples.

Results

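Cells rejoin a DNA double-strand break (DSB) without a template by end joining. In classical nonhomologous end joining (NHEJ), a ring of Ku proteins slides onto each broken end and recruits a large protein kinase, the ends are trimmed, and a ligase complex held together by scaffold proteins seals them. In alternative end joining, ends that have been resected are annealed at short stretches of matching bases and filled in by DNA polymerase theta, which leaves deletions with microhomology at their boundaries. The study behind these data asked how the start of DNA replication shapes mutation and gene expression, and it measured expression in the cell line in which it also mapped DSBs.

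The expression of 10 end-joining genes was examined among the 58051 genes listed in each library. They were chosen by name: XRCC5, XRCC6, PRKDC, DCLRE1C, XRCC4, LIG4, NHEJ1 and PAXX of classical NHEJ, TP53BP1, which guides the choice of pathway, and POLQ of alternative end joining. The libraries were made from total RNA of 3 replicates of wild-type, untreated H9 cells, an established human embryonic stem cell line, grown on vitronectin, after depletion of ribosomal RNA. There is 1 condition, so there were no groups to compare and no p-value is given. Nothing in the labels says whether the replicates were separate cultures, and their spread, the only error given here, may be technical. The libraries held between 8655155 and 12024802 counted reads. All 10 pluripotency markers examined, among them POU5F1 and NANOG, were in the high expression class, at 259 to 2576 TPM. The 5 lymphoid markers summed to between 0.624 and 1.20 TPM per library, with CD2 at 0 reads, and the 4 lineage markers TBXT, SOX17, PAX6 and GATA4 lay between 0.961 and 1.75 TPM. Of the 5 fibroblast markers, DCN and LUM were at 0.0985 and 0.178 TPM, whereas THY1 was at 145 TPM and COL1A1 and COL1A2 were at 14.6 and 25.6 TPM.

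Levels are given in TPM, a length-scaled unit: the reads on a gene divided by the length of the union of its exons and scaled to the same sum in each library. As the study did for its own values, genes with a mean below 0.01 TPM were called nonexpressed and the rest were divided into 3 quantiles, here over protein-coding genes, with boundaries at 3.35 and 26.96 TPM. Of the 10 end-joining genes, 5 were in the high class, 4 in the medium class and 1 in the low class. The high class holds 28.8% of all protein-coding genes. All 10 genes had reads in every library. Their means spanned 0.631 to 776 TPM, a 1228-fold range, with a median of 27.3 TPM against 7.10 TPM over all protein-coding genes. XRCC5 and XRCC6 together made up 83.6% of the summed TPM of the 10 genes. In bulk RNA, fewer cells that express a gene and less of its RNA per cell cannot be told apart.

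**Figure D1:**
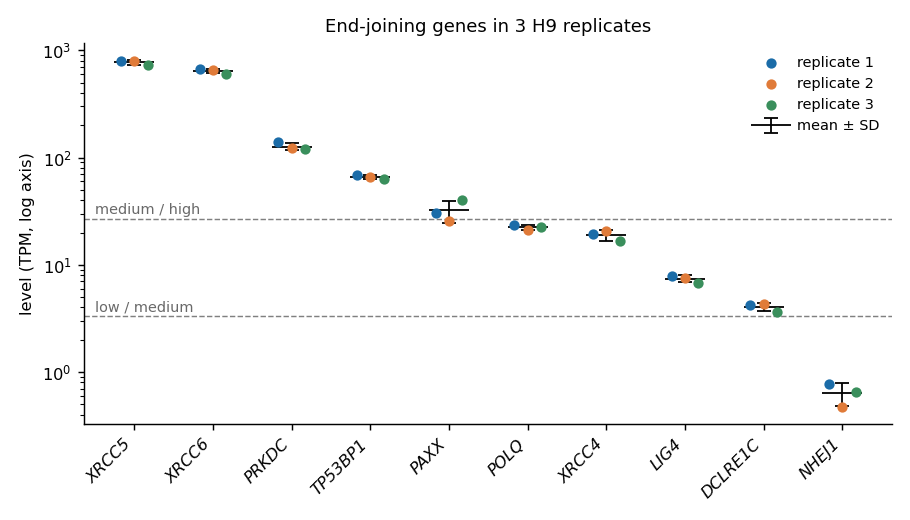
TPM (log axis) of each end-joining gene in the 3 replicates (points) with the mean and SD (black); dashed lines mark the class boundaries of 3.35 and 26.96 TPM. The Ku genes XRCC5 and XRCC6 stand above 600 TPM and NHEJ1 below 1 TPM in every replicate.

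The Ku heterodimer, which binds the broken ends, was encoded by the most highly expressed genes of the set. XRCC5 (ENSG00000079246, chromosome 2, 216107464 to 216206303), which encodes Ku80, had 795, 799 and 732 TPM in replicates 1, 2 and 3, a mean of 776 ± 37.9 TPM (SD, n = 3). XRCC6 (ENSG00000196419, chromosome 22, 41621163 to 41664048), which encodes Ku70, had 670, 657 and 607 TPM, a mean of 645 ± 33.2 TPM (SD, n = 3). The 2 genes did not overlap in level, and both were lowest in replicate 3. Among protein-coding genes XRCC5 was at percentile 99.4 and XRCC6 at percentile 99.3. Although each level varied by about 5% between libraries (coefficients of variation of 4.89% and 5.15%), their ratio hardly moved: XRCC6 stood at 0.843, 0.821 and 0.830 of XRCC5, a mean of 0.831 ± 0.0109 (SD, n = 3). Both subunits of the heterodimer were thus present at a similar level of RNA, with XRCC5 the higher in 3 of 3 libraries. XRCC6 has 5 annotated processed pseudogenes, XRCC6P1 to XRCC6P5, which could have shared its reads. They received few: 3 of them had no read in any library, XRCC6P1 had 3 reads in replicate 2 alone, and XRCC6P2 had 1, 2 and 2 reads. Reads that aligned equally well to gene and copy may have been lost before counting.

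PRKDC (ENSG00000253729, chromosome 8, 47773111 to 47960178) encodes the catalytic subunit of the DNA-dependent protein kinase, which Ku recruits. It had 139, 122 and 120 TPM, a mean of 127 ± 10.3 TPM (SD, n = 3), from 10484, 10735 and 7724 reads. Replicate 1 was the highest, above the other 2 by more than they differed from each other. Per unit of exon length, PRKDC stood at 0.163 ± 0.0108 (SD, n = 3) of XRCC5, although it had nearly as many reads, because the annotated exons of its 23 transcripts cover 29073 bp. Its canonical transcript, the single transcript that the annotation puts forward for a gene, has 13459 bp. That transcript is also its longest. A change of length definition was applied to all genes, and each library was then rescaled to the same sum, so that levels also move for genes whose own length stays the same. SOX2, with 2512 bp by every definition, went from 397 TPM over the exon union to 299 TPM with the longest transcripts and 240 TPM with the canonical ones. The level of PRKDC was 206 TPM with the longest transcript of every gene and 165 TPM with the canonical one. A ratio of 2 genes is free of this rescaling.

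DCLRE1C (ENSG00000152457, chromosome 10, 14897359 to 14954432) encodes Artemis, the nuclease that PRKDC activates to open hairpins and trim ends. It had 4.17, 4.30 and 3.65 TPM, a mean of 4.04 ± 0.342 TPM (SD, n = 3), which is 0.0319 ± 0.00285 (SD, n = 3) of PRKDC. The mean lies above the lower class boundary of 3.35 TPM, which makes the gene medium. Each replicate classified alone has a higher boundary, at 4.23, 4.32 and 4.75 TPM, and DCLRE1C was below it each time, in the low class in all 3. This gene has 38 annotated transcripts, the most of the set, and its level rose the most of the set with either single transcript. It was 6.26 ± 0.506 TPM with the canonical transcript and 6.99 TPM with the longest, 1.55 and 1.73 times the value over the exon union. The unprocessed pseudogene DCLRE1CP1 had 2 reads in replicate 2 and none in the others.

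Genes of the ligation step were expressed at far lower levels than those of Ku. LIG4 (ENSG00000174405, chromosome 13, 108207439 to 108218368), the ligase dedicated to NHEJ, had 7.92, 7.51 and 6.83 TPM, a mean of 7.42 ± 0.554 TPM (SD, n = 3). Its level was near the middle of all protein-coding genes, at percentile 50.4. XRCC4 (ENSG00000152422, chromosome 5, 83077498 to 83353787), the scaffold that binds and stabilizes the ligase, had 19.4, 20.9 and 16.5 TPM, a mean of 18.9 ± 2.22 TPM (SD, n = 3). The scaffold was above the ligase in every library, by 2.45, 2.78 and 2.42 times, a mean of 2.55 ± 0.201 (SD, n = 3). XRCC5 RNA, in turn, was 105 ± 3.73 times that of LIG4 (SD, n = 3), and this ratio was 94.5 with canonical transcript lengths and 144 with the longest transcripts. LIG4 was counted from 108 to 162 reads per library and XRCC4 from 98 to 169, and counting error alone would give coefficients of variation of 8.61% and 8.86%, against 7.46% and 11.7% observed. The spread of LIG4 was therefore no larger than that of read sampling.

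PAXX and NHEJ1 encode 2 further proteins of the XRCC4 fold, PAXX and XLF, which bridge the ends and assist the ligase. PAXX (ENSG00000148362, chromosome 9, 136992422 to 136993984) had 30.7, 25.5 and 40.3 TPM, a mean of 32.2 ± 7.54 TPM (SD, n = 3). It was highest in replicate 3, the shallowest library, in which XRCC5, XRCC6, PRKDC, TP53BP1, XRCC4, LIG4 and DCLRE1C had their lowest value. PAXX was the only gene of the set to be called high in some libraries and medium in another, replicate 2. Its level relative to XRCC4 was 1.59, 1.22 and 2.44 in the 3 libraries. NHEJ1 (ENSG00000187736, chromosome 2, 219069355 to 219160869) had the lowest level of the set, at 0.773, 0.475 and 0.647 TPM, a mean of 0.631 ± 0.150 TPM (SD, n = 3). These values rest on 21, 15 and 15 reads, for which counting error alone gives a coefficient of variation of 24.6%, against 23.7% observed. XRCC4 was 25.1, 43.96 and 25.5 times as high as NHEJ1.

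The value of NHEJ1 comes with a limit set by the gene models. Another gene, ENSG00000280537 (chromosome 2, 219075329 to 219170827), is annotated as protein-coding on the same strand, begins upstream of NHEJ1 and runs through it. Its exons contain 897 of the 897 coding bases of the canonical NHEJ1 transcript. Of the 8 exons of that transcript, 6 lie wholly within exons of ENSG00000280537 and 1, the first, is not shared at all. The last exon, 7099 bp long, is shared over 1127 bp, and what is left of it is untranslated. Reads on coding exons thus belong to both gene models, and a counter that drops reads of ambiguous origin would have kept none of them. ENSG00000280537 itself had 1, 2 and 2 reads. Dividing by the 8408 bp of NHEJ1 exons that are not shared with ENSG00000280537, a choice made after seeing the data, gave 0.784 ± 0.186 TPM (SD, n = 3) with the scaling of the other levels. Among all protein-coding genes, the 767 with at least 90% of their canonical coding sequence shared on the same strand had a median of 0.0691 TPM, and 45.5% of them had no read, whereas the 17895 genes that share none had a median of 8.17 TPM and 12.3% had no read. Whether the low level of NHEJ1 comes from such sharing was not tested. None of the other 9 end-joining genes shares a coding base with a counted gene on the same strand.

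**Figure D2:**
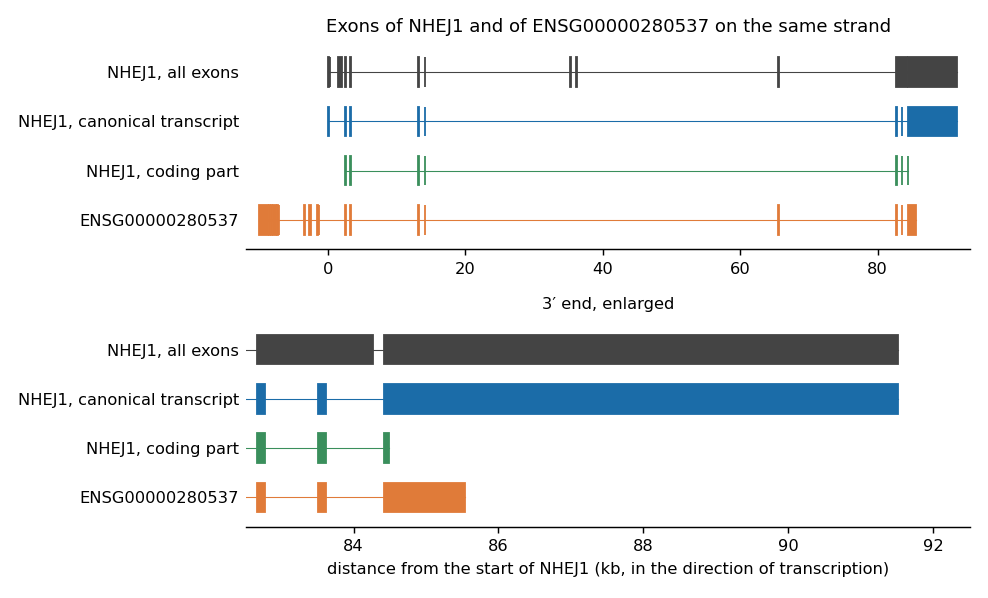
Exons (boxes) of NHEJ1, of its canonical transcript, of the coding part of that transcript and of ENSG00000280537, against the distance from the start of NHEJ1 in kb; the lower panel enlarges the 3′ end. Each coding piece of NHEJ1 has a matching exon in ENSG00000280537, which shares 1127 bp of the 7099 bp last exon.

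TP53BP1 (ENSG00000067369, chromosome 15, 43403061 to 43510728) encodes 53BP1, the chromatin protein that shields broken ends from resection and so favors NHEJ. It had 68.1, 65.6 and 63.0 TPM, a mean of 65.6 ± 2.52 TPM (SD, n = 3), with the smallest coefficient of variation of the set, 3.84%. It stood at 0.519 ± 0.0243 (SD, n = 3) of PRKDC, or 0.300 ± 0.0141 with canonical transcript lengths. Exons of TUBGCP4, a gene for a component of the microtubule-nucleating gamma-tubulin complex on the opposite strand, cover 28.8% of its exon length, most of it outside the coding sequence. TUBGCP4 had 28.6, 29.7 and 30.4 TPM. Since the use of strand in the counting is not given, reads over these 3732 bp cannot be assigned to either gene with certainty.

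POLQ (ENSG00000051341, chromosome 3, 121431431 to 121545988) encodes DNA polymerase theta, the enzyme that marks alternative end joining. It had 23.6, 21.0 and 22.7 TPM, a mean of 22.4 ± 1.31 TPM (SD, n = 3), in the medium class. POLQ was above LIG4 in every library, by 2.98, 2.80 and 3.32 times, a mean of 3.03 ± 0.263 (SD, n = 3). With canonical transcript lengths the ratio was 1.78 ± 0.154, and POLQ was still the higher in 3 of 3 libraries.

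Ordered by mean TPM, the genes ran from XRCC5 over XRCC6, PRKDC, TP53BP1, PAXX, POLQ, XRCC4, LIG4 and DCLRE1C to NHEJ1. No neighbors in this order overlapped between libraries, but the closest pair nearly met. POLQ exceeded XRCC4 by a mean of 3.53 TPM, against an SD of 3.06 TPM of the difference within libraries, and by a factor of only 1.01 in replicate 2. PAXX exceeded POLQ by 9.72 TPM, against an SD of 7.01 TPM. The other neighboring pairs differed by at least 3 times the SD of their difference. Some places in the order depended on gene length. XRCC4 came before POLQ with either the longest transcript (22.5 against 17.7 TPM) or the canonical one (19.1 against 14.2 TPM). DCLRE1C came before LIG4 with the longest transcript (6.99 against 5.89 TPM) and after it with the canonical one (6.26 against 8.02 TPM).

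**Figure D3:**
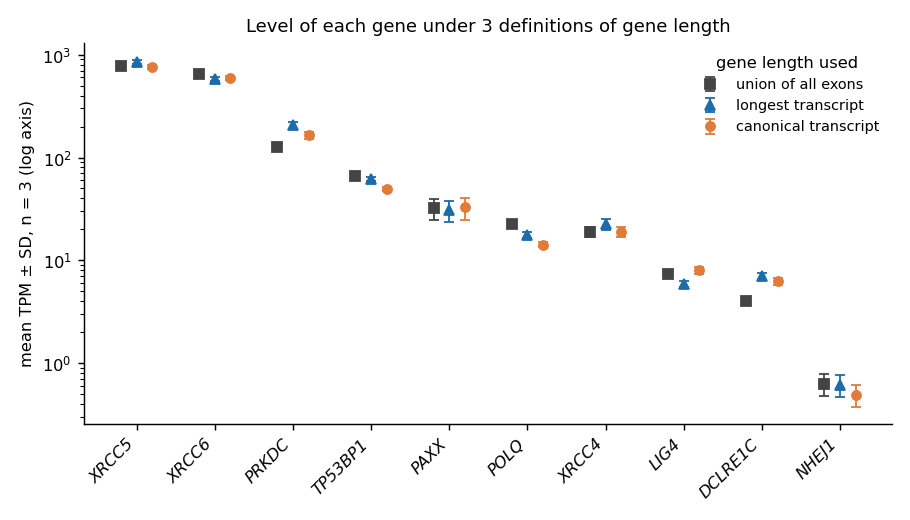
Mean TPM ± SD (n = 3, log axis) of each gene with its length taken as the union of all exons (squares), the longest transcript (triangles) or the canonical transcript (circles). PRKDC and DCLRE1C lie higher and POLQ lies lower with either single transcript than with the exon union, rescaling of the libraries included.

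The libraries also differed from each other with the GC content of genes. Replicate 3 was compared with the mean of the other 2, on CPM, the reads of a gene scaled to the same library total. Over 9946 genes with at least 100 reads in every library, the median log2 ratio was 0.30 in the 5% of genes with the highest exon GC content, from 62.5% to 72.3%. In bins below 50% GC it was below zero. The exons of PAXX are 65.0% G and C, the highest of the set, and its log2 ratio was 0.55, with an SD of 0.16 from counting alone. The other 9 genes have exons of 35.2% to 49.7% GC, and their log2 ratios lay between -0.26, for XRCC4, and 0.08, for NHEJ1. Of the 10 genes, 9 were between the 5th and the 95th percentile of their GC bin. XRCC4, at -0.26 against a lower bound of -0.24, was just outside, with a counting SD of 0.17. With 98 reads in replicate 3, XRCC4 was below the 100 reads required of the binned genes. So was NHEJ1, with 21, 15 and 15 reads and a counting SD of 0.44. The part of GC content in the value of PAXX was not tested.

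**Figure D4:**
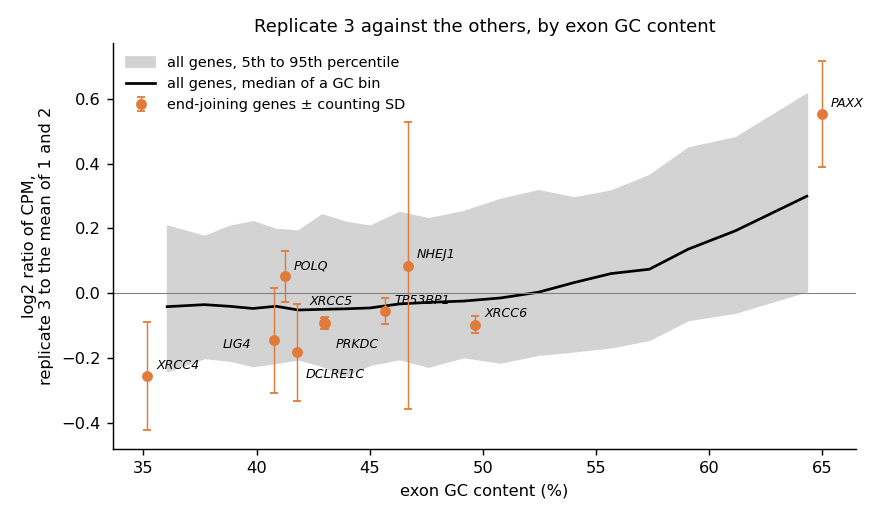
Log2 ratio of CPM in replicate 3 to the mean of replicates 1 and 2 against exon GC content (%), for the end-joining genes (points, bars show the SD from counting alone) and for all genes with at least 100 reads per library (line, median of a bin; band, 5th to 95th percentile). PAXX, at 65.0% GC, lies at 0.55 where the median of its bin is 0.30.

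Set beside genes with similar counts, most end-joining genes varied between libraries about as much as these did. The biological coefficient of variation of each gene, the square root of the dispersion that edgeR fits and draws toward that of genes with similar counts, had a median of 0.0671 over the 10 genes and 0.0676 over all 15997 genes kept by the filter. PAXX had the highest value, 0.124, above 95.8% of the 500 genes nearest in level, and PRKDC, at 0.0613, was above 89.4% of its own 500. The other 8 genes were above 33.6% to 65.6% of theirs. Because these values are drawn toward each other, part of their likeness is built in. The coefficient of variation of TPM is not drawn in this way. By that measure PAXX was above 96% and PRKDC above 88.8% of the 500 protein-coding genes nearest in count. The other 8 were above 38.8% to 67.4% of theirs. Without replicate 3, the median was lower both over the 10 genes, at 0.0350, and over all genes kept, at 0.0359.

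Several end-joining genes start back to back with another gene. For 5 of the 10, XRCC6, PRKDC, TP53BP1, XRCC4 and LIG4, a protein-coding gene on the opposite strand starts within 1000 bp of the gene's own outermost start, against 13.4% of all protein-coding genes. The neighbor of XRCC6 is DESI1, 120 bp away, that of PRKDC is MCM4, 7 bp away, that of TP53BP1 is MAP1A, 230 bp away, and that of LIG4 is ABHD13, 24 bp away. TMEM167A, the neighbor of XRCC4, starts 365 bp inside XRCC4, so that their 5′ ends overlap. If the start of the canonical transcript is used for each gene, 3 of 10 remain (XRCC6, PRKDC and XRCC4), against 9.98% of protein-coding genes. The canonical starts of TP53BP1 and MAP1A lie 24452 bp apart, and those of LIG4 and ABHD13 2856 bp apart. Levels of the 2 genes of a pair were unequal. These levels count reads from every start of a gene. TMEM167A, at 268 ± 12.7 TPM (SD, n = 3), was 13.3 to 15.4 times as high as XRCC4, whereas DESI1, at 44.3 ± 1.07 TPM, was 14.1 to 14.8 times lower than XRCC6. MAP1A, which encodes a microtubule-associated protein of neurons, had 5.28 ± 0.300 TPM and was 11.5 to 13.3 times lower than TP53BP1. MCM4, a subunit of the replicative helicase, had 241 ± 9.34 TPM and was 1.77 to 2.03 times as high as PRKDC. ABHD13, at 18.7 ± 0.759 TPM, was 2.41 to 2.61 times as high as LIG4. With canonical transcript lengths all 5 differences kept their direction, and the smallest, that of ABHD13 and LIG4, was 1.41 times.

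**Figure D5:**
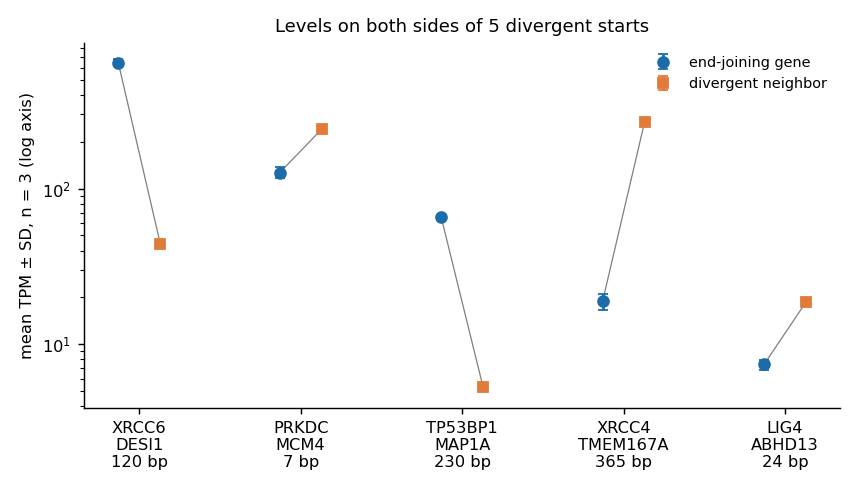
Mean TPM ± SD (n = 3, log axis) of 5 end-joining genes (circles) and of the protein-coding gene that starts on the opposite strand (squares), with the distance between their outermost starts. The neighbor is the lower of the pair for XRCC6 and TP53BP1 and the higher for PRKDC, XRCC4 and LIG4.

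The DNA between such outermost starts is short. The stretch between PRKDC and MCM4 was not examined, and XRCC4 and TMEM167A overlap at their starts. In the other 3 pairs the DNA between the starts lies outside every annotated exon, and it is shown here for these. Each is read 5′ to 3′ toward the end-joining gene, from build hg38, with capitals for matches on either strand to the GC box (GGGCGG) or the CCAAT box (CCAAT).
XRCC6 and DESI1, chr22:41621044-41621162, plus strand: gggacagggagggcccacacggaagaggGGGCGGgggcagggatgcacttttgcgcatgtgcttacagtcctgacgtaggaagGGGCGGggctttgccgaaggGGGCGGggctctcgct
TP53BP1 and MAP1A, chr15:43510729-43510957, minus strand: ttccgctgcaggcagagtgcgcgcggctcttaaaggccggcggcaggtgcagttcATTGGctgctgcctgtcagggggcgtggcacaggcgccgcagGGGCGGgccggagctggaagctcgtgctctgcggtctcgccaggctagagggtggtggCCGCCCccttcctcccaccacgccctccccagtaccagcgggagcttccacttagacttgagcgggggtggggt
LIG4 and ABHD13, chr13:108218369-108218391, minus strand: tccgagcatgcgcagaagccgct
The stretch of XRCC6 holds 3 GC boxes in 119 bp, where 33.9% of RefSeq promoter windows cut to the same length hold at least 1. That of TP53BP1 holds 2 GC boxes and 1 CCAAT box in 229 bp, where 41.7% and 30.4% of windows of that length hold each. The 23 bp of LIG4 hold neither. All 3 are rich in G and C, at 68.1%, 69.9% and 65.2%.

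In the promoter windows of RefSeq (GRCh38.p14, 250 bases before a start and 50 after it), 8 of the 10 genes, all but XRCC5 and PRKDC, had an entry. A GC box was found in a window of all 8, against 48.3% of all genes with an entry, and a CCAAT box in 5 of 8, against 39.7%. The core site of ETS factors (CCGGAAG) was found in 6 of 8, DCLRE1C, LIG4, PAXX, POLQ, TP53BP1 and XRCC4, against 12.2%. Both strands were searched, and a gene was counted if any of its windows held the letters. LIG4, NHEJ1 and DCLRE1C have more than 1 window each, which gives more room for a match. The windows of the 8 genes had a median of 66.7% G and C, against 58.7% over all 35116 windows. The shares over all genes were not adjusted for the number of windows or for GC content. Of the 7 motifs searched, the other 4 were found in at most 1 gene: the CRE (TGACGTCA) was found in 1 of 8, against 2.25%, E2F sites in 1 of 8 (TTTGGCGC), against 0.795%, and 0 of 8 (TTTCCCGC), against 1.98%, and the palindromic NRF1 site in 0 of 8, against 1.52%. Such a match describes the sequence and does not show that a factor binds there.

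Around these genes, the wider pathway was read from 4 lists with 42 genes, of which 23 were in the high class, 12 in the medium class, 6 in the low class and 1 was nonexpressed. Of all protein-coding genes, 28.8% are in the high class. Among 12 genes of alternative end joining and of the resection that precedes it, 11 were in the high class and 1, NBN of the break-sensing MRE11 complex at 17.6 ± 0.972 TPM, was in the medium class. The list median was 44.5 TPM. FEN1, a flap nuclease, had 230 ± 7.50 TPM and PARP1, which senses breaks, 165 ± 6.28 TPM. The ligases of this route were both above LIG4: LIG3 had 57.7 ± 2.86 TPM and LIG1 32.9 ± 0.811 TPM. The value of PARP1 was 462 TPM with its canonical transcript. RHNO1, a partner of POLQ in mitosis, had 74.1 ± 7.55 TPM. Exons on the opposite strand cover 30.5% of the exon length of LIG3, which makes its value less certain.

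Among 16 genes that act with 53BP1 and its effectors, 8 were in the high class, 6 in the medium class and 2 in the low class. The high class holds 28.8% of all protein-coding genes. PAXIP1, 1 of the 8, was just above the boundary of 26.96 TPM, at 27.3 ± 0.605 TPM. It was in the medium class in each replicate classified alone. Upstream of 53BP1, the kinase ATM at 10.1 ± 0.751 TPM and the ubiquitin ligase RNF8 at 23.2 ± 1.25 TPM were in the medium class. In the high class were the histone gene H2AX at 251 ± 34.4 TPM, the adaptor MDC1 at 86.6 ± 3.38 TPM and the further ubiquitin ligase RNF168 at 94.5 ± 6.30 TPM. H2AX, like PAXX, was highest in replicate 3, at 290 TPM against 239 and 225 TPM, and its exons are 66.8% G and C. RIF1, which binds 53BP1, had 93.2 ± 2.22 TPM. In the shieldin complex, which RIF1 recruits, MAD2L2 had 116 ± 4.35 TPM (360 TPM with its canonical transcript), SHLD2 had 26.7 ± 1.57 TPM, SHLD3 had 7.46 ± 1.38 TPM and SHLD1 had 5.55 ± 0.522 TPM. The subunits of the CST complex, with which shieldin fills in resected ends, were all below SHLD2: CTC1 had 14.2 ± 1.38 TPM, STN1 1.72 ± 0.0497 TPM and TEN1 0.646 ± 0.556 TPM. TEN1 rests on 1, 5 and 1 reads, and 100% of its coding sequence is shared with another gene on the same strand, as for NHEJ1.

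Among 10 end-processing and accessory genes, 4 were in the high class, against 28.8% of all protein-coding genes. Of the rest, 5 were in the medium class and 1, APLF, in the low class at 2.02 ± 0.383 TPM. TDP2, which frees ends from trapped topoisomerase II, had 89.3 ± 6.42 TPM, and TDP1, which does so for topoisomerase I, had 40.7 ± 1.86 TPM. The gap-filling polymerases of NHEJ were lower, POLL at 18.6 ± 0.771 TPM and POLM at 8.69 ± 1.54 TPM. The value of APTX depended on gene length more than these, at 9.79 TPM over the exon union and 46.6 TPM over the canonical transcript. Of the 4 genes on the list of end joining in lymphocytes, 3 were in the low class and 1 was nonexpressed. DNTT, the polymerase that adds untemplated bases to antigen receptor joints, had no read in any library, where a count of 0 allows up to 3 reads in each. RAG1 and RAG2, which encode the recombinase that cuts antigen receptor genes, had 22, 26 and 14 reads and 9, 9 and 4 reads, or 0.965 ± 0.159 and 0.784 ± 0.243 TPM (SD, n = 3).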

How the data were processed

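Total RNA of 3 H9 replicates was sequenced after ribosomal RNA depletion. The authors trimmed reads with Trim Galore 0.4.4 and aligned them to GRCh38 with TopHat2 2.1.1. They deposited whole-number read counts per Ensembl gene, not normalized, 1 file per replicate. How reads were counted (tool, gene models, strand) is not given in the sources used here.

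Counts were joined to GENCODE release 44 (GRCh38) by identifier, and 56948 of 58051 matched. TPM was computed from union exon length. Exon overlap was measured against genes listed in the counts. Dispersions were fitted with edgeR 4.0.16 (intercept only, filterByExpr, TMM) over all genes, with DESeq2 1.42.0 for alternatives, in R 4.3.3. Levels and overlaps were computed in Python 3.11.15 with pandas 2.3.3. Scripts were tested on simulated counts. Totals of 10390984, 12024802 and 8655155 reads limit genes with few reads, and counting intervals cover counting error only. RefSeq protein sequences were not used here, and some genes of the lists are not reported here by name.

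The end-joining genes and pathway lists were chosen with earlier results of these data known. Named genes were those, their relatives, the genes that overlap their exons or start beside them, their pseudogenes, and cell type markers. Alternatives were gene length (longest or canonical transcript, or unshared exons), scaling by TMM or DESeq2, mitochondrial genes left out, counts thinned to 10% (median of 11 draws), the median of replicates, other class rules, other start distances, no count filter or GC-corrected offsets for dispersions, and each replicate left out.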

Additional observations from a re-analysis of the deposited data

How the results depend on the processing

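Gene length was the choice that mattered. With the longest and the canonical transcript, respectively, the ratio of XRCC6 to XRCC5 was 0.685 and 0.786 and that of PRKDC to XRCC5 was 0.243 and 0.218. XRCC4 to LIG4 was 3.81 with the longest transcript and POLQ to LIG4 was 1.78 with the canonical one. These follow from the lengths alone. Of the 10 mean TPM values, which also carry the rescaling of each library, 8 moved by more than their SD with the longest transcript (4 higher and 4 lower) and 6 with the canonical one (3 higher and 3 lower). Leaving mitochondrial genes out of the total raised all 10 to 1.04 times their value. This exceeded the SD only for TP53BP1, which has the smallest coefficient of variation. TMM, DESeq2 factors, thinning and the unshared length moved none. The TMM and DESeq2 factors were centered over the 3 libraries, so that a mean over them could hardly change. Thinning draws reads at random and does not shift a level on average. With the unshared length of every gene, NHEJ1 rose to 1.22 times its value, which was within its SD. With 3 replicates, neither the median nor the mean without 1 of them can differ from the full mean by more than the SD. These settings therefore could not move a value, and gave 0.873 to 1.12 times the main one.

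The number of end-joining genes in the high class lay between 4 and 7 under all 12 alternatives, with 7 when all genes were classified and 4 with counts thinned to 10% or a threshold of 1 TPM. For the pathway lists it lay between 16, with a threshold of 1 TPM, and 32, with all genes. The median biological coefficient of variation, 0.0671, ranged from 0.0350, without replicate 3, to 0.0881, without replicate 2, and it was 0.0453 from DESeq2's gene-wise dispersions. Over all genes kept by the filter, edgeR gave a median of 0.0676. DESeq2's gene-wise dispersions gave 1e-04, the lowest value that this estimate takes. A median at this floor does not measure spread. The end-joining genes therefore could not be compared with all genes through DESeq2's gene-wise dispersions. The count of genes with a divergent neighbor was 3 with canonical transcript starts and 5 otherwise. The share of all protein-coding genes with such a neighbor changed as well, from 13.4% in the main setting to 9.98% with canonical starts. It was 10.9% with a shorter start distance and 15.6% with a longer one. When neighbors of every gene type were allowed it was 26.7%, with the count still at 5 of 10. Depth limits NHEJ1 and TEN1 most. No paired analysis was possible because all 3 libraries belong to the same group.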

Other observations

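Relatives of the end-joining genes were also read. PRKDC, at 127 TPM, was the highest of the 6 phosphatidylinositol 3-kinase-related genes in these libraries, ahead of MTOR at 77.2 ± 1.60 TPM, TRRAP at 48.3 ± 3.06 TPM and SMG1 at 35.0 ± 3.22 TPM. The checkpoint kinases ATM and ATR had 10.1 ± 0.751 and 7.53 ± 0.605 TPM over their exon unions, and 18.5 and 15.2 TPM with canonical transcripts. Both relatives of DCLRE1C, the nuclease genes DCLRE1A and DCLRE1B, were above it, at 23.6 ± 2.02 and 16.9 ± 1.83 TPM. Of the relatives of POLQ, the helicase gene HELQ had 10.2 ± 0.720 TPM and the polymerase gene POLN had 0.688 ± 0.106 TPM, from 16, 16 and 10 reads.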
